A study of Mus musculus with 8 samples.

Results

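The genes described here are 6 genes by which osteoblasts, the cells that build bone, are recognised: the transcription factor genes Sp7 and Dlx5, the bone matrix genes Bglap, Bglap2 and Ibsp, and the membrane protein gene Ifitm5. They were taken by symbol from a table of 50462 genes, and all 6 were found. Their RNA was measured by RNA-seq in medial knee cartilage of male, wild-type C57Bl/6J mice. The naive group (n = 4) had no operation and was sampled at day 0, aged 11 weeks. The DMM group (n = 4) was operated on at 11 weeks and sampled at day 42, aged 17 weeks. In this surgical model of osteoarthritis (destabilisation of the medial meniscus) the ligament that holds that meniscus to the tibia is cut. The comparison asks how the RNA of the joint tissue differed 42 days after the operation. Sham-operated mice were not analysed here, and the DMM mice were also 6 weeks older, so the operation and age cannot be told apart.

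Osteoblasts arise from mesenchymal precursors under the control of Runx2 and, downstream of it, Sp7 (osterix), a zinc finger factor without which bone does not form. Dlx5 is a homeobox factor that acts in the same programme. Mature osteoblasts secrete a scaffold of type I collagen together with proteins that bind mineral, among them bone sialoprotein (Ibsp) and osteocalcin (Bglap and Bglap2). Articular cartilage lies directly on a plate of bone, which is known to be remodelled in osteoarthritis, and hypertrophic chondrocytes can also express several genes of this programme.

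In the DMM libraries 5 of the 6 genes were higher and none was lower: Ibsp by 2.70-fold, Sp7 by 2.02-fold, Dlx5 by 1.91-fold, Bglap by 1.79-fold and Bglap2 by 1.62-fold. Ifitm5 was measured at 1.41 times its naive level and did not pass the test. A gene was called when its Benjamini-Hochberg adjusted P was 0.05 or less and its change was 1.5-fold or more (DESeq2 on 17760 genes). By that rule 13.7% of all genes tested were called in either direction and 7.75% were called higher in DMM. All 6 genes had enough reads to enter the test. Their log2 fold changes exceeded those of between 85.8% (Ifitm5) and 99% (Ibsp) of the genes tested. In 4 of the 6 genes every DMM library lay above every naive library, which was so for 11.9% of all genes tested. The measurements are of bulk tissue, so more cells of a type and more RNA per cell cannot be told apart.

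The tissue was labelled as cartilage and its cells as chondrocytes. Over all libraries the chondrocyte genes Col2a1, Acan, Col11a2 and Sox9 had 15101 to 97825, 5203 to 16873, 5472 to 14372 and 805 to 2182 normalised counts. Of other chondrocyte genes, Hapln1 had 945 to 3578, Col9a1 98.5 to 1711 and Matn1, a cartilage matrilin, at most 11.97. Per length of transcript, the type I collagen gene Col1a1 had a level of 8516 ± 1980 in naive libraries (counts over mean transcript length, scaled to sum to 1000000 in a library), against 1457 ± 502 for the cartilage collagen gene Col2a1 (SD, n = 4). In DMM libraries the levels were 22062 ± 3501 for Col1a1 and 4273 ± 1829 for Col2a1. RNA of type I collagen was thus abundant in both groups, and which cells it came from was not tested. Total estimated counts were 12479443 to 16548002 per library. Naive replicate 2 had the fewest genes with at least 10 counts (16770, against 18245 to 19271 in the other 7), DMM replicate 3 the highest erythroid share among the DMM libraries and DMM replicate 1 the most skeletal muscle transcripts.

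Markers of other cells also differed between the groups, and their part in the results below was not tested. Of the 9 neutrophil lineage genes, 9 were called lower in DMM by DESeq2, while edgeR called 7 and limma-voom 8. The share of all counts that the 9 genes held was 0.878% to 1.23% in naive and 0.414% to 0.867% in DMM libraries. Of the 8 erythroid genes 7 were called lower, with shares of 1.07% to 1.80% and 0.593% to 1.26%. Of the 5 synovial fibroblast genes 3 (Col3a1, Thy1 and Pdgfra) were called higher, with shares of 0.0695% to 0.197% in naive and 0.365% to 0.751% in DMM libraries, mostly from Col3a1. The other two were not called: Pi16 had a log2 fold change of -0.35 (adjusted P = 0.00966, DESeq2), lower in every DMM library, and Dpp4 one of 0.13. Of the 13 chondrocyte genes 4 (Col2a1, Acan, Sox9 and Col11a2) were called higher and none lower, with shares of 0.204% to 0.378% and 0.554% to 1.05%, mostly from Col2a1. The other 9 were not called. Log2 fold changes were above 0 in 9 of the 13. They were below 0 for Col9a1 (-0.36), Matn3 (-0.29), Epyc (-0.25) and Matn1 (-2.52, with few counts and no adjusted P). Of the 9 osteoclast genes only Ocstamp was called higher, with shares of 0.103% to 0.145% and 0.117% to 0.187%. The Ocstamp groups overlapped. Itgb3 of the same list, at -0.55, was under the fold threshold, but every DMM library lay below every naive library (adjusted P = 0.000224, DESeq2). Log2 fold changes were above 0 in 7 of the 9 osteoclast genes. In the endothelial list 2 of 6 were called higher and 1 lower, with shares of 0.0387% to 0.0451% and 0.0424% to 0.0470%. None of the 5 marrow stroma genes was called by DESeq2, edgeR or limma-voom, although 2 had an unadjusted P under 0.05 in DESeq2, and their shares were 0.0749% to 0.101% and 0.0843% to 0.136%. None of the 5 skeletal muscle genes was called by these tools or had an unadjusted P under 0.05 in DESeq2, 3 of them having no adjusted P, and their shares were 0.000186% to 0.00275% and 0.000277% to 0.00676%.

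Bglap and Bglap2 lie side by side on chromosome 3 with another osteocalcin gene, Bglap3, and their transcripts are so alike that a short read often fits more than one of them. Bglap is at chr3:88383501-88384464 and Bglap2 at chr3:88377736-88378699, both on the minus strand (GRCm38, GENCODE vM21). Their coding sequences are each 285 bases long and 98.6% identical, differing at 4 bases: A10C, T14C, A31G and T273C, with the base of Bglap first, that of Bglap2 last, and positions counted from 1 at the A of the start codon. Bglap3 differs from Bglap at 13 bases (95.4% identity) and from Bglap2 at 9 (96.8%). The first coding exon, in which the Bglap2 and Bglap3 sequences are identical, and the last coding exon are shown because they hold all 4 bases that part Bglap from Bglap2. A71C and G77C, which part Bglap3 from both, lie between them. Capitals mark the bases that differ among the 3 genes, and each sequence runs 5′ to 3′ along the gene.
Bglap, first coding exon, chr3:88384352-88384415: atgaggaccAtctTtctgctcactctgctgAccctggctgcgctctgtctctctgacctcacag
Bglap2, first coding exon, chr3:88378587-88378650: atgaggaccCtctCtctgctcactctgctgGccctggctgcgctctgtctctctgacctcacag
Bglap, last coding exon, chr3:88383638-88383767: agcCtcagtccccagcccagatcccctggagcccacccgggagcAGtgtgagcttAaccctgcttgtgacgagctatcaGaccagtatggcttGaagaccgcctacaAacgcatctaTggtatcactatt
Bglap2, last coding exon, chr3:88377873-88378002: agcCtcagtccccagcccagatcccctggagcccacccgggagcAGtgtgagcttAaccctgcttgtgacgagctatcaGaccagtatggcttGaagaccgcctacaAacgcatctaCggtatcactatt
Bglap3, last coding exon, chr3:88368759-88368888: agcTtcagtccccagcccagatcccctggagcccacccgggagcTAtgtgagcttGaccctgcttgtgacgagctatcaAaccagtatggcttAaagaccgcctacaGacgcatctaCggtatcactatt

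Of all 31-base words in the annotated transcripts, 62.9% of those of Bglap and 95.2% of those of Bglap2 also occurred in another gene. Bglap shared 56.1% of its words with Bglap2 and 33.3% with Bglap3. The counting program divides such reads between the genes by estimate, so the separate values of Bglap and Bglap2 are uncertain, and the sum of the 3 genes is given beside them below. Sp7 shared 0.4% of its words with any other gene, and Ibsp and Dlx5 shared 0.0%. Ifitm5 shared 27.2%, all with Gm45717, a gene model that overlaps it on the same strand.

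Promoter sequence was at hand for Bglap, Ibsp and Ifitm5. The 250 bases before the transcript start (RefSeq, GRCm38.p6) are shown for Bglap and Ibsp, both of which were called higher, with motif matches in capitals. The RefSeq start of Ibsp lies downstream of the GENCODE start, so 116 bases of its window are inside the gene as placed by GENCODE, as are 48 of the Ifitm5 window and 0 of the Bglap window.
Bglap, chr3:88384467-88384716, minus strand: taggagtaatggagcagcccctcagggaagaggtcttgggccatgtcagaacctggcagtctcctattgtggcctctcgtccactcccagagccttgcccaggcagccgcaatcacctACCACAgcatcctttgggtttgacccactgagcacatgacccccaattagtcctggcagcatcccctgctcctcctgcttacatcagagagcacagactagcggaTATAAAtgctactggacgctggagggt
Ibsp, chr5:104299037-104299286, plus strand: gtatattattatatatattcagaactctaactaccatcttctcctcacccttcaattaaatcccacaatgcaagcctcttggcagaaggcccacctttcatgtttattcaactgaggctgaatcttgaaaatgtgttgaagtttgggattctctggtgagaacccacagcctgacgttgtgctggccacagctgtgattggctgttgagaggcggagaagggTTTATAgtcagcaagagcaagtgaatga

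These windows were searched on both strands for ACCACA, the core bound by Runx factors, TAATTA, a core bound by homeobox factors, GGGCGG, the GC box bound by Sp factors, and TATAAA, the TATA box. No match overlapped another. Bglap held ACCACA at 132 to 127 bases before the start and TATAAA at 27 to 22 bases. Ibsp held TTTATA, the reverse complement of TATAAA, at 28 to 23 bases. Ifitm5, whose window was chr7:140950244-140950493 on the minus strand, held GGGCGG at 142 to 137 and again at 119 to 114 bases before the start. Among 32851 promoter windows of this length, 14.0% held ACCACA, 4.8% TAATTA, 32.7% GGGCGG and 12.4% TATAAA. A match here is a description of the letters and not of a bound factor.

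Sp7, on chromosome 15 (chr15:102356606-102367182, minus strand), had the smallest adjusted P of the 6 genes. Its normalised counts were 310, 394, 391 and 426 in naive replicates 1 to 4 and 797, 739, 649 and 879 in DMM replicates 1 to 4. The groups did not overlap, and the highest library was 1.37 times the lowest in naive and 1.36 times in DMM mice. The group means were 380 ± 49.3 and 766 ± 97.1 (SD, n = 4), and the log2 fold change was 1.01 ± 0.14 (SE; adjusted P = 6.1e-10, DESeq2), with a 95% interval of the fold of 1.66 to 2.45.

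Dlx5, on chromosome 6 (chr6:6877805-6882085, minus strand), had normalised counts of 222, 251, 422 and 352 in naive replicates 1 to 4 and 552, 545, 557 and 721 in DMM replicates 1 to 4. The groups did not overlap, and DMM replicate 4 stood above the other DMM libraries, which were nearly equal. The means were 312 ± 92.1 and 594 ± 85.1 (SD, n = 4), with a log2 fold change of 0.93 ± 0.20 (SE; adjusted P = 0.000119, DESeq2).

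Dlx6 (chr6:6863334-6868568, plus strand), the homeobox gene that neighbours Dlx5, had normalised counts of 318, 318, 594 and 552 in naive and 319, 261, 201 and 477 in DMM libraries, a log2 fold change of -0.50 ± 0.28 (SE; adjusted P = 0.198, DESeq2). Without DMM replicate 4 it was -0.78 and was called lower (adjusted P = 0.0181, DESeq2). The ratio of Dlx5 to Dlx6 was 0.70, 0.79, 0.71 and 0.64 in naive replicates 1 to 4 and 1.73, 2.08, 2.77 and 1.51 in DMM replicates 1 to 4. In these counts Dlx5 was thus the lower of the pair in every naive library and the higher in every DMM library. The counts were not corrected for transcript length, which averaged 1379.3 bases for Dlx5 and 1068.8 for Dlx6. The shift of the ratio between groups does not depend on that correction, but which gene is the more abundant does. The log2 ratio differed by 1.48 between the groups (95% interval 0.93 to 2.12; two-sided exact permutation P = 0.0286, the smallest that 70 assignments allow). This was the most separated of 6 ratios of a member to a chromosomal neighbour, which were chosen after the values were seen, and adjusted over those 6 the exact P was 0.171. Dlx6 overlaps the antisense genes Dlx6os1 and Dlx6os2 and whether counting used strand was not stated, so its reads and theirs cannot be told apart.

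**Figure D1:**
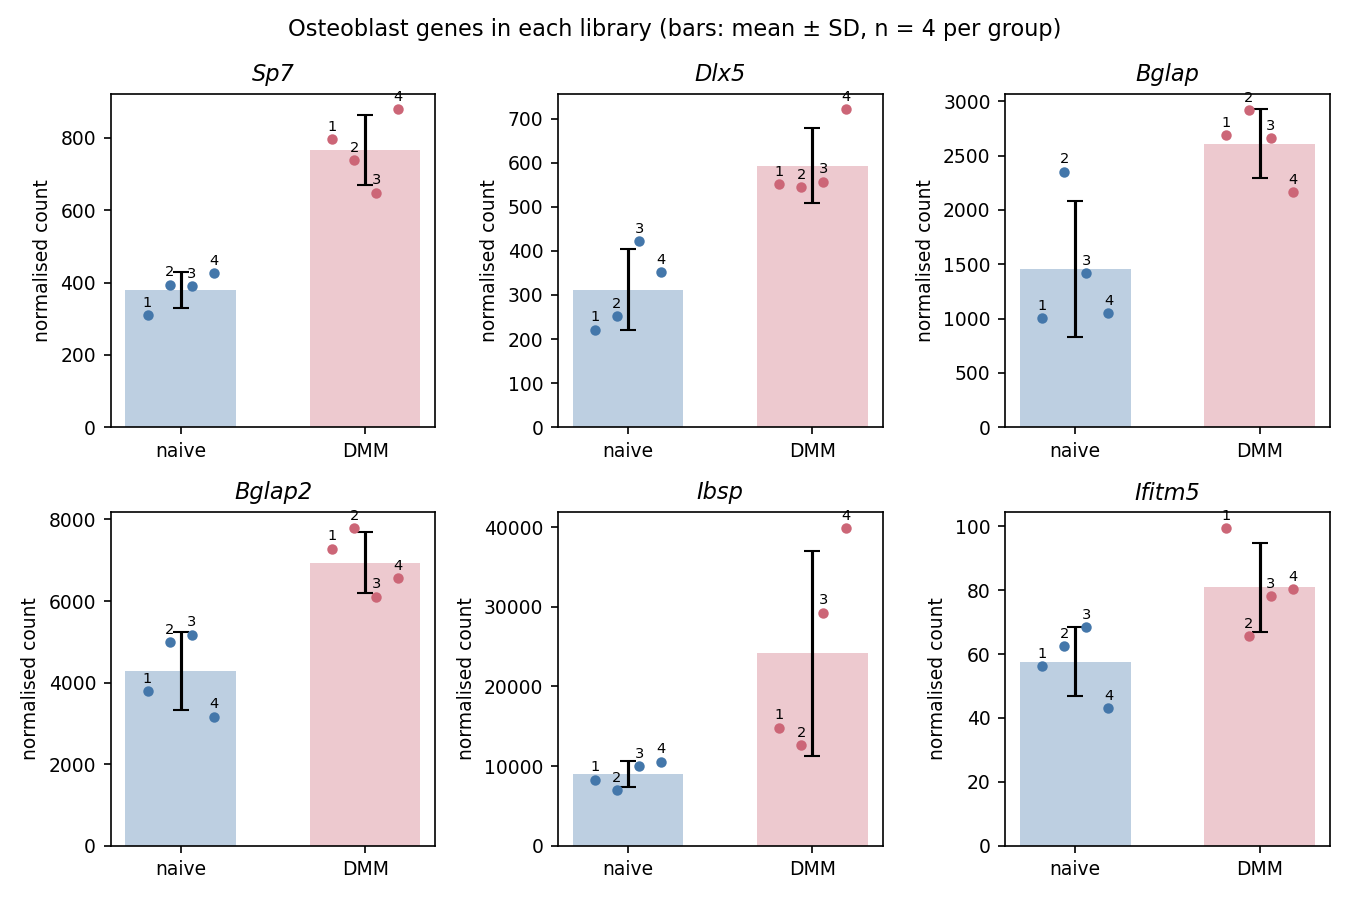
Normalised counts (y axis, linear from 0) of the 6 osteoblast genes in naive and DMM libraries; points are libraries labelled by replicate number, bars are group means and error bars the SD (n = 4). The groups are apart in Sp7, Dlx5, Bglap2 and Ibsp and overlap in Bglap, where naive replicate 2 is at 2353, and in Ifitm5.

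Bglap, which with Bglap2 encodes osteocalcin, had normalised counts of 1005, 2353, 1419 and 1051 in naive replicates 1 to 4 and 2690, 2916, 2662 and 2165 in DMM replicates 1 to 4. Naive replicate 2 lay above DMM replicate 4, and the other 3 naive libraries lay below every DMM library. The means were 1457 ± 626 and 2609 ± 317 (SD, n = 4), with a log2 fold change of 0.84 ± 0.24 (SE; adjusted P = 0.0037, DESeq2). Without naive replicate 2 the log2 fold change was 1.17, and the gene was called in that fit as in each of the other 7 fits that left out a single library.

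Bglap2 was more abundant, with normalised counts of 3797, 4984, 5176 and 3160 in naive and 7280, 7793, 6107 and 6568 in DMM libraries. The groups did not overlap. The means were 4279 ± 964 and 6937 ± 747 (SD, n = 4), with a log2 fold change of 0.70 ± 0.16 (SE; adjusted P = 0.000386, DESeq2). Without naive replicate 4 the log2 fold change was 0.57, under the fold threshold, and the call was lost.

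Bglap3, the remaining gene of the cluster, had normalised counts of 157, 273, 362 and 249 in naive and 367, 384, 242 and 257 in DMM libraries, which overlapped, and it was not called (log2 fold change 0.26 ± 0.25 SE, adjusted P = 0.502, DESeq2). Summed over the 3 genes, for which the division of reads within the cluster does not matter, the normalised counts were 4960, 7610, 6956 and 4459 in naive and 10337, 11093, 9011 and 8990 in DMM libraries. The summed groups did not overlap, and the sum was called higher by 1.64-fold (log2 fold change 0.72 ± 0.17 SE, adjusted P = 0.000584, DESeq2). The ratio of Bglap2 to Bglap3 was 12.6 to 24.1 in naive and 19.8 to 25.5 in DMM libraries, and its log2 difference of 0.43 had a 95% interval of -0.28 to 1.01 (two-sided exact permutation P = 0.114, 0.171 adjusted over the same 6 ratios).

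Ibsp, bone sialoprotein, is on chromosome 5 (chr5:104299171-104311469, plus strand), between Dmp1 and Mepe in a cluster of genes for mineral-binding matrix proteins that also holds Spp1 (osteopontin). Its normalised counts were 8284, 6998, 9992 and 10538 in naive replicates 1 to 4 and 14803, 12617, 29264 and 39895 in DMM replicates 1 to 4. Every DMM library was above every naive library, but DMM replicates 3 and 4 were far above DMM replicates 1 and 2, and the highest DMM library was 3.16 times the lowest. The means were 8953 ± 1619 and 24145 ± 12838 (SD, n = 4), and the log2 fold change was 1.43 ± 0.41 (SE; adjusted P = 0.00386, DESeq2), with a 95% interval of the fold of 1.56 to 4.68. With DMM replicates 3 and 4 left out together, an alternative chosen after the values were seen, the log2 fold change was 0.62 and the gene was still called. With naive replicate 2 and DMM replicates 1 and 3 left out together, also chosen after the values were seen, for their number of genes detected, skeletal muscle transcripts and erythroid share, it was 1.46 and the call was lost (adjusted P = 0.0953, DESeq2).

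The neighbours of Ibsp were measured with it. Spp1 had normalised counts of 13405, 11973, 14773 and 17111 in naive and 19640, 19592, 27568 and 31003 in DMM libraries, with DMM replicates 3 and 4 again highest (log2 fold change 0.77 ± 0.18 SE, adjusted P = 0.000205, DESeq2). With those 2 libraries left out it was 0.46, under the fold threshold, and was not called. Dmp1, a matrix protein of osteocytes, had 2643, 2600, 3364 and 3535 in naive and 6224, 5593, 6465 and 7884 in DMM libraries (log2 fold change 1.11 ± 0.15 SE, adjusted P = 2.53e-11, DESeq2). Mepe, another osteocyte product, ranged from 893 to 3263 in naive and from 2662 to 5831 in DMM libraries and was not called (log2 fold change 1.06 ± 0.48 SE, adjusted P = 0.0981, DESeq2); it was called without naive replicate 4 (1.46). The ratio of Ibsp to Spp1 was 0.58 to 0.68 in naive libraries and 0.75, 0.64, 1.06 and 1.29 in DMM replicates 1 to 4, a log2 difference of 0.53 (95% interval -0.07 to 1.14; two-sided exact permutation P = 0.0571, 0.171 adjusted over the same 6 ratios).

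Ifitm5, a membrane protein of mineralising osteoblasts, is on chromosome 7 (chr7:140948958-140950291, minus strand) and was the least abundant of the 6, with 38 to 120 estimated counts in a library before scaling. Its normalised counts were 56.3, 62.5, 68.5 and 43.1 in naive and 99.5, 65.6, 78.2 and 80.3 in DMM libraries. DMM replicate 2 fell within the naive range, and the other 3 DMM libraries lay above it. The means were 57.6 ± 10.9 and 80.9 ± 14.0 (SD, n = 4), and the log2 fold change of 0.50 ± 0.23 did not pass (SE; adjusted P = 0.115, DESeq2), with a 95% interval of the fold of 1.03 to 1.94. Scaled by total count instead, it was called (log2 fold change 0.65, adjusted P = 0.03, DESeq2). The overlapping gene Gm45717 was listed at 0 in every naive library and DMM replicate 1, and at 10.8, 7.41 and 2.71 normalised counts in DMM replicates 2, 3 and 4. Reads that fit both genes are divided by estimate, so the Ifitm5 values of those DMM libraries are uncertain. The overlap of DMM replicate 2 with the naive range, and the missed call, may depend on that division. A sum of both genes was not tested.

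**Figure D2:**
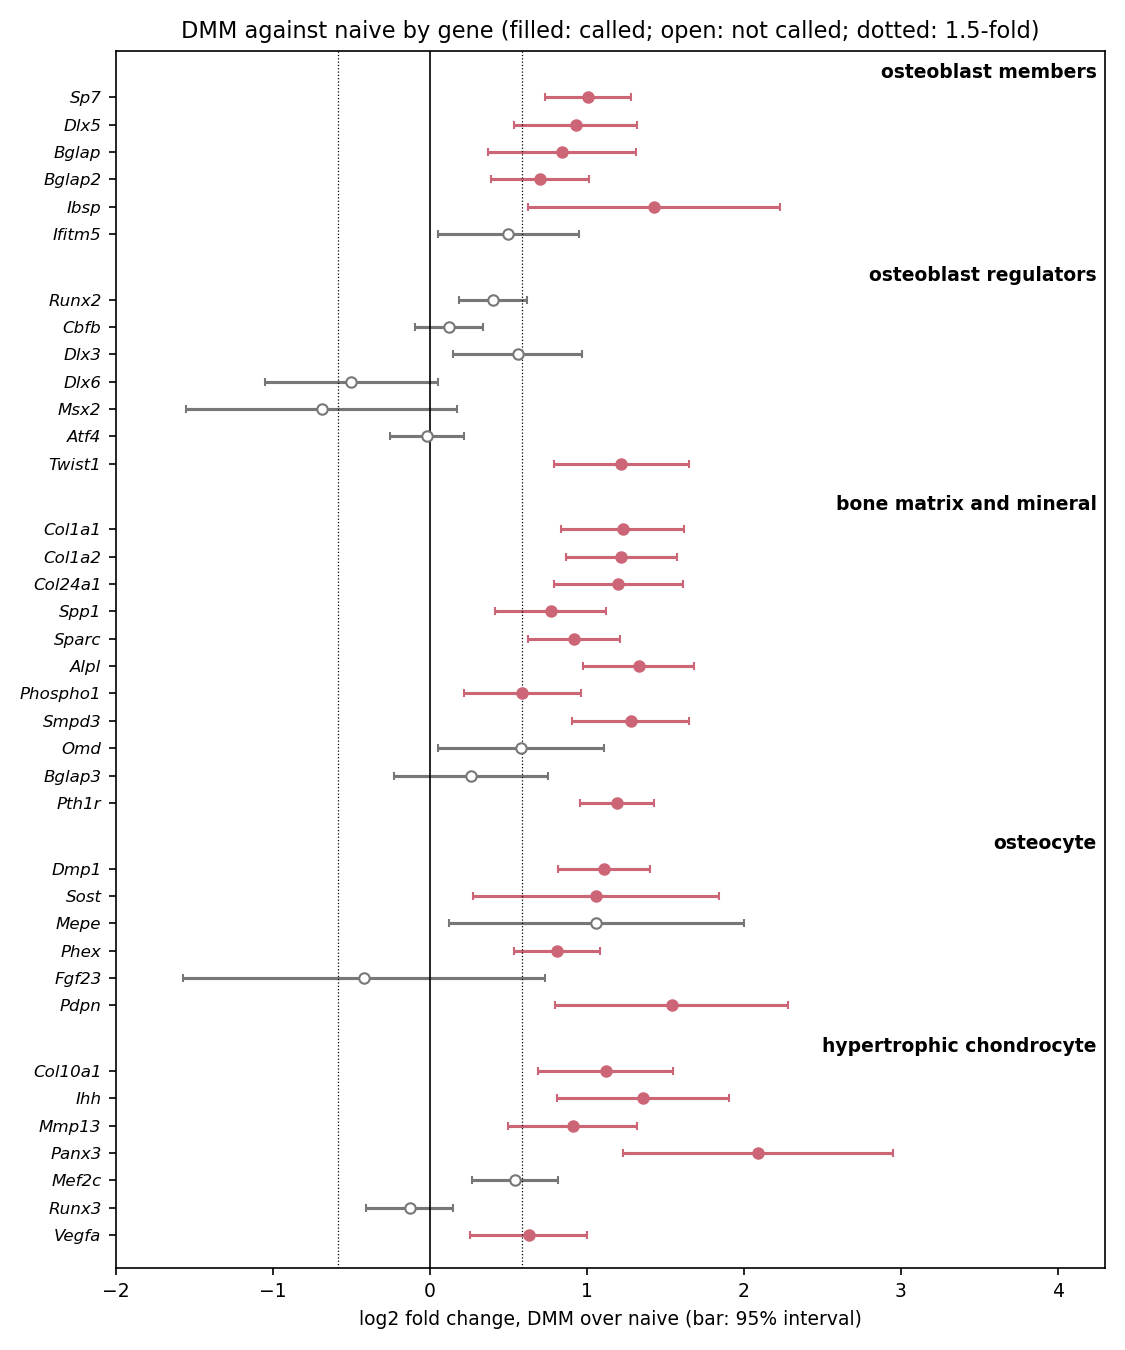
Log2 fold changes of DMM over naive (x axis) for the 6 osteoblast genes and the genes of 4 lists (y axis); horizontal bars are 95% intervals, filled points were called and open points were not, and dotted lines mark 1.5-fold. Among the osteoblast genes 5 of 6 points are filled, from 0.70 for Bglap2 to 1.43 for Ibsp, and the bone matrix points lie mostly to the right of the dotted line while the regulators are spread to either side of 0.

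Whether the 6 genes differed among themselves in their response was tested on the log2 ratio of each pair of genes within a library. For none of the 15 pairs did the difference between naive and DMM libraries pass, either at an unadjusted or at an adjusted P under 0.05 (two-sided exact permutation test over 70 assignments). The smallest P of 0.0286 that the test allows could not by itself have passed adjustment over 15 pairs. Without a single library the unadjusted exact P reached 0.0286 for Bglap against Ifitm5 (without naive replicate 2, difference 0.64) and for Sp7 against Ifitm5 (without naive replicate 4, 0.71). With all libraries the pair nearest the threshold was Sp7 and Ifitm5, whose log2 ratio was higher by 0.52 in DMM (95% interval -0.30 to 1.03; exact P = 0.0857, adjusted 0.6). Ibsp against Ifitm5 gave the largest difference, 0.80, with an interval of -0.71 to 2.15 (exact P = 0.143, adjusted 0.6). Sp7 against Dlx5 gave the smallest, 0.04, with an interval of -0.43 to 0.64 (exact P = 0.857, adjusted 0.914). The lowest bound over the 15 intervals was -2.63 (Bglap against Ibsp) and the highest 2.15, so an unequal response of some pairs was not detectable with 4 libraries a group.

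The levels of the genes were compared on the same per-length scale, over the 48855 genes with a known length. In naive and DMM libraries respectively the per-length level was 1010 ± 212 and 1793 ± 235 for Bglap2, 490 ± 127 and 1415 ± 758 for Ibsp, and 404 ± 141 and 801 ± 96.2 for Bglap (SD, n = 4). It was 25.6 ± 9.2 and 52.4 ± 8.46 for Dlx5, 21.1 ± 3.85 and 46.0 ± 7.24 for Sp7, and 8.38 ± 1.53 and 12.9 ± 2.47 for Ifitm5. The 3 matrix genes thus formed an upper tier and the transcription factor genes and Ifitm5 a lower one.

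Over all 8 libraries, Bglap was 15.6 times Dlx5 and higher in 8 of 8 libraries (two-sided exact sign-flip P = 0.00781, the smallest that 8 libraries allow, adjusted 0.0195 over the 5 neighbouring pairs). Sp7 was 3.0 times Ifitm5, also in 8 of 8 libraries (exact P = 0.00781, adjusted 0.0195). The other neighbours in the order did not pass after adjustment: Bglap2 was 1.71 times Ibsp on average and higher in 6 of 8 libraries (exact P = 0.0469, adjusted 0.0586), Ibsp 1.40 times Bglap (exact P = 0.148, adjusted 0.148) and Dlx5 1.16 times Sp7 (exact P = 0.0313, adjusted 0.0521). In DMM replicates 3 and 4 Ibsp was the higher, at 1627 and 2395 against 1490 and 1731 for Bglap2. The levels of Bglap and Bglap2 also rest on the estimated division of shared reads. The order of the means was the same with the longest transcript as the length and without any single library. Dlx5 and Sp7 did pass with the longest transcript (ratio 1.71, exact P = 0.00781, adjusted 0.013) and without naive replicate 2 (ratio 1.19, exact P = 0.0156, adjusted 0.026).

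**Figure D3:**
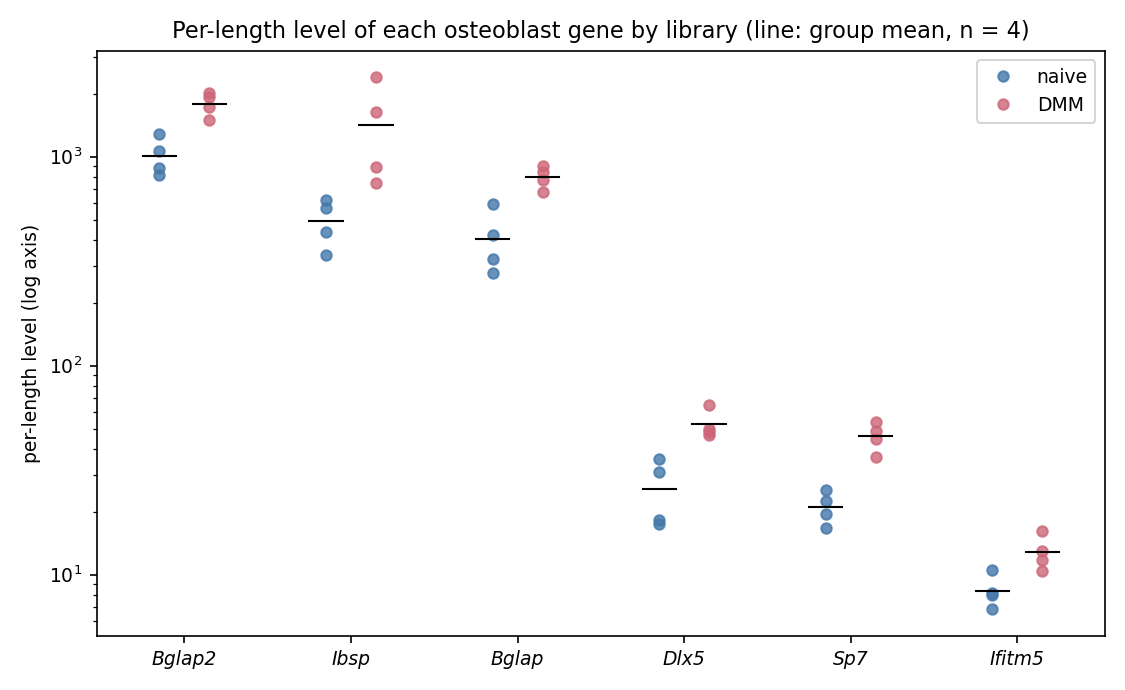
Per-length level (y axis, log axis, scaled to sum to 1000000 in a library) of the 6 osteoblast genes, in order of their mean, in the 4 naive and 4 DMM libraries; points are libraries and lines are group means. Bglap2, Ibsp and Bglap lie at 277 or higher in every library, and Dlx5, Sp7 and Ifitm5 at 64.9 or lower.

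Of 7 other regulators of the osteoblast programme 1 was called higher and none lower, with a median log2 fold change of 0.12 beside -0.02 over all genes tested. Twist1, a factor of mesenchymal precursors that restrains Runx2, was called at a log2 fold change of 1.22 (from 112 ± 26.3 to 259 ± 45.2 normalised counts, SD, n = 4; adjusted P = 1.11e-06, DESeq2).

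Runx2 itself had normalised counts of 1326, 1389, 1555 and 1632 in naive and 1994, 1907, 1758 and 2142 in DMM libraries. The groups did not overlap, but the log2 fold change of 0.40 ± 0.11 was under the fold threshold, so it was not called (SE; adjusted P = 0.00273, DESeq2). Dlx3 had a log2 fold change of 0.56, also under the threshold (adjusted P = 0.0366, DESeq2), and was called without naive replicate 4 (0.79) or without DMM replicate 2 (0.61). Cbfb, the partner of Runx factors, was at 0.12, Atf4 at -0.02 and Msx2 at -0.69, with adjusted P of 0.494, 0.947 and 0.287 in DESeq2. The Msx2 counts were 16.7 to 47.1 in naive and 8.23 to 24.1 in DMM libraries.

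Of 11 genes of bone matrix and mineral deposition 9 were called higher and none lower, with a median log2 fold change of 1.19. Col1a1 and Col1a2, the chains of type I collagen, were called at 1.23 and 1.22 (adjusted P = 4.53e-08 and 6.62e-09, DESeq2). Col1a1 had 108513 to 198416 normalised counts in naive and 267108 to 384195 in DMM libraries. Alpl, the alkaline phosphatase that frees phosphate for mineral, had 1902 to 2435 and 4371 to 7264 (log2 fold change 1.33 ± 0.18 SE, adjusted P = 1.98e-11, DESeq2).

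The other called members of that list were Smpd3 (1.28), Col24a1 (1.20), the parathyroid hormone receptor gene Pth1r (1.19), Sparc, which encodes osteonectin (0.92), Spp1 (0.77) and the phosphatase gene Phospho1 (0.59), values being log2 fold changes. Phospho1 was not called without naive replicate 3, naive replicate 4 or DMM replicate 1 (0.56, 0.44 and 0.52). Omd was not called (0.58, adjusted P = 0.101, DESeq2), although it was without naive replicate 3, DMM replicate 1 or DMM replicate 2 (0.74, 0.72 and 0.73), and Bglap3 was not called.

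Of 6 osteocyte genes 4 were called higher and none lower, and the median log2 fold change was 1.06 over the 5 that had an adjusted P. Besides Dmp1 these were Phex (0.81), Pdpn (1.54) and Sost, the gene of the bone formation inhibitor sclerostin. The Pdpn groups overlapped. With naive replicate 2 and DMM replicates 1 and 3 left out together, its log2 fold change was 0.82 and it was not called (adjusted P = 0.339, DESeq2). Pdpn had 164, 90.3, 243 and 107 normalised counts in DMM replicates 1 to 4. It was thus highest in DMM replicates 1 and 3, as was Col3a1 of the synovial fibroblast list. Dmp1, Phex and Sost were highest in DMM replicate 4. Which cells the Pdpn RNA came from was not tested. Sost had normalised counts of 1170, 1039, 2097 and 2890 in naive and 3229, 3918, 2750 and 5137 in DMM libraries, with naive replicate 4 above DMM replicate 3, and was close to the threshold (log2 fold change 1.06 ± 0.40 SE, adjusted P = 0.0381, DESeq2). It was not called when DMM replicate 4 was left out (0.88, adjusted P = 0.136, DESeq2), nor without naive replicate 3 or DMM replicates 1 or 2 (adjusted P = 0.0815, 0.0764 and 0.109, DESeq2), nor without DMM replicates 3 and 4 (adjusted P = 0.167, DESeq2). Fgf23 was at 3.29 to 10.2 normalised counts and had no adjusted P.

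Of 7 hypertrophic chondrocyte genes 5 were called higher and none lower, with a median log2 fold change of 0.91. Col10a1, the collagen of hypertrophic cartilage, had normalised counts of 3851, 6093, 7240 and 5930 in naive and 7872, 14859, 12022 and 15416 in DMM libraries (log2 fold change 1.12 ± 0.22 SE, adjusted P = 2.14e-05, DESeq2). Panx3 (2.09), Ihh (1.36), Mmp13 (0.91) and Vegfa (0.63) were also called, at the log2 fold changes given, although Vegfa was not without naive replicate 1, naive replicate 2 or DMM replicate 4 (0.58, 0.50 and 0.49), nor with either set of libraries left out together (0.46 and 0.61). Mef2c was under the fold threshold (0.54, adjusted P = 0.00137, DESeq2) and reached it without naive replicate 4, DMM replicate 1 or DMM replicate 2 (0.60, 0.60 and 0.59), and Runx3 was at -0.13 (adjusted P = 0.569, DESeq2).

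Within the groups the 6 genes did not vary as a unit. Correlations are over 8 libraries of deviations from the group means of log2 normalised counts, so the points share the library and its scaling and are a description only. Bglap deviated with Bglap2 (r = 0.72), with which it shares reads, and with Col1a1 (r = 0.92). Ibsp deviated with Spp1 (r = 0.96) and Dmp1 (r = 0.80) and opposite to Bglap (r = -0.46) and Bglap2 (r = -0.47). Dlx5 deviated with Sp7 (r = 0.66), Ibsp (r = 0.54), Dmp1 (r = 0.87) and Sost (r = 0.82). Sp7 also deviated with Sost (r = 0.68) and Dmp1 (r = 0.61), and Bglap2 with Ifitm5 (r = 0.61). The remaining pairs of members had an r from -0.20 (Bglap with Dlx5) to 0.36 (Bglap with Ifitm5). Genes of the chondrocyte lists also went with some members: Panx3 (r = 0.68) and Col2a1 (r = 0.58) with Ibsp, and Col10a1 (r = 0.64) with Dlx5. The other pairs of a member with these genes had a lower r, down to -0.28 for Ifitm5 with Col10a1. These partners were taken from 7 genes of the lists, chosen with their values known.

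**Figure D4:**
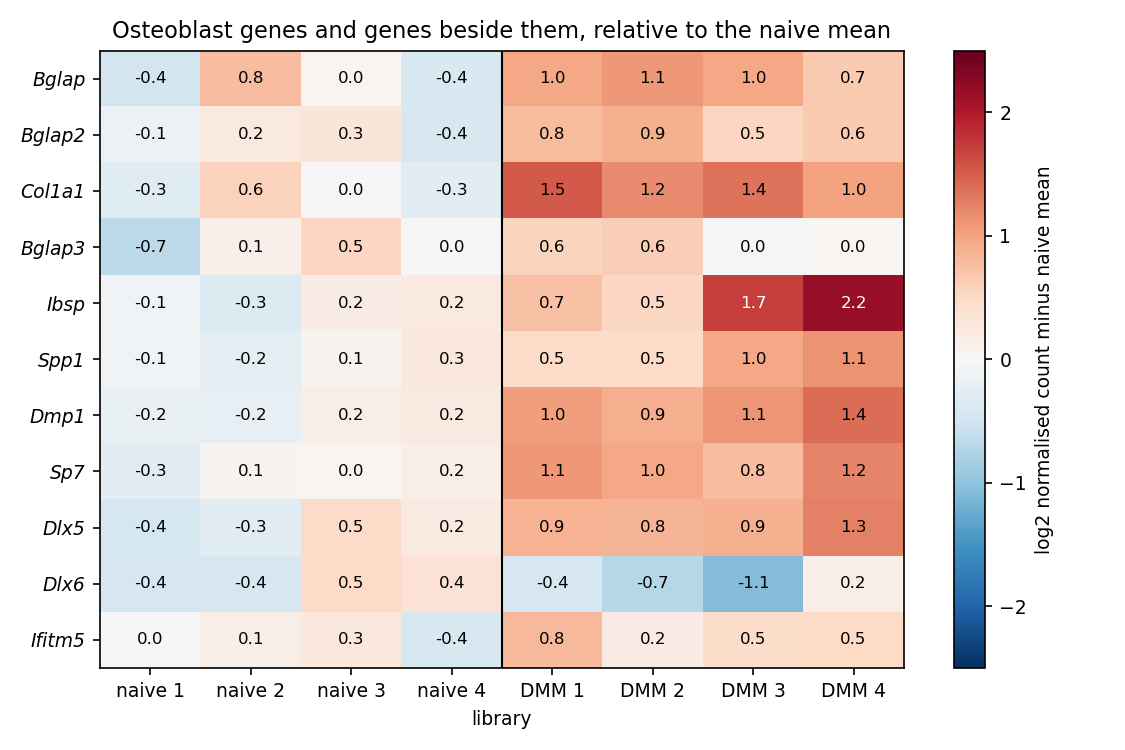
Log2 normalised count minus the naive mean (colour and printed value) in each library (x axis) for the 6 osteoblast genes and 5 genes described beside them (y axis); the vertical line parts naive from DMM libraries. Ibsp is at 1.73 and 2.17 in DMM replicates 3 and 4 against 0.51 and 0.74 in the other DMM libraries, and Dlx6 is below 0 in 3 of 4 DMM libraries, where Dlx5 is above 0.

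The genes most like the 6 in their pattern over the 8 libraries were sought among 13188 other genes with a symbol and a mean of at least 50 normalised counts. Likeness was Pearson's r with the mean of the standardised log2 values of the 6 genes. The 5 highest were Notum (r = 0.984), which encodes a secreted Wnt inhibitor, Sim2 (0.983), Clec14a (0.976), an endothelial membrane protein gene, Kat6b (0.973), a histone acetyltransferase gene, and Papss1 (0.969), whose enzyme makes the sulphate donor used for proteoglycans. With the group means removed the correlations, which the choice by likeness over the same libraries also partly fixes, were 0.88, 0.84, 0.83, 0.73 and 0.75 in the same order. The log2 fold changes of these 5, which the choice by likeness partly fixes, were 1.91, 1.52, 0.90, 0.30 and 0.42 in that order. Of the genes compared, 215 had an r of at least 0.9.

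The calls were compared over other ways of fitting the same counts. Sp7, Dlx5 and Bglap were called in every one of the fits plotted, Bglap2 in all but that without naive replicate 4 and Ibsp in all but the one without naive replicate 2 and DMM replicates 1 and 3. Ifitm5 was called only with the total count as size factor. Under that scaling the median over all genes was 0.14 instead of -0.02 on the log2 scale, and 2030 genes were called higher and 489 lower, in place of 1377 and 1052.

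**Figure D5:**
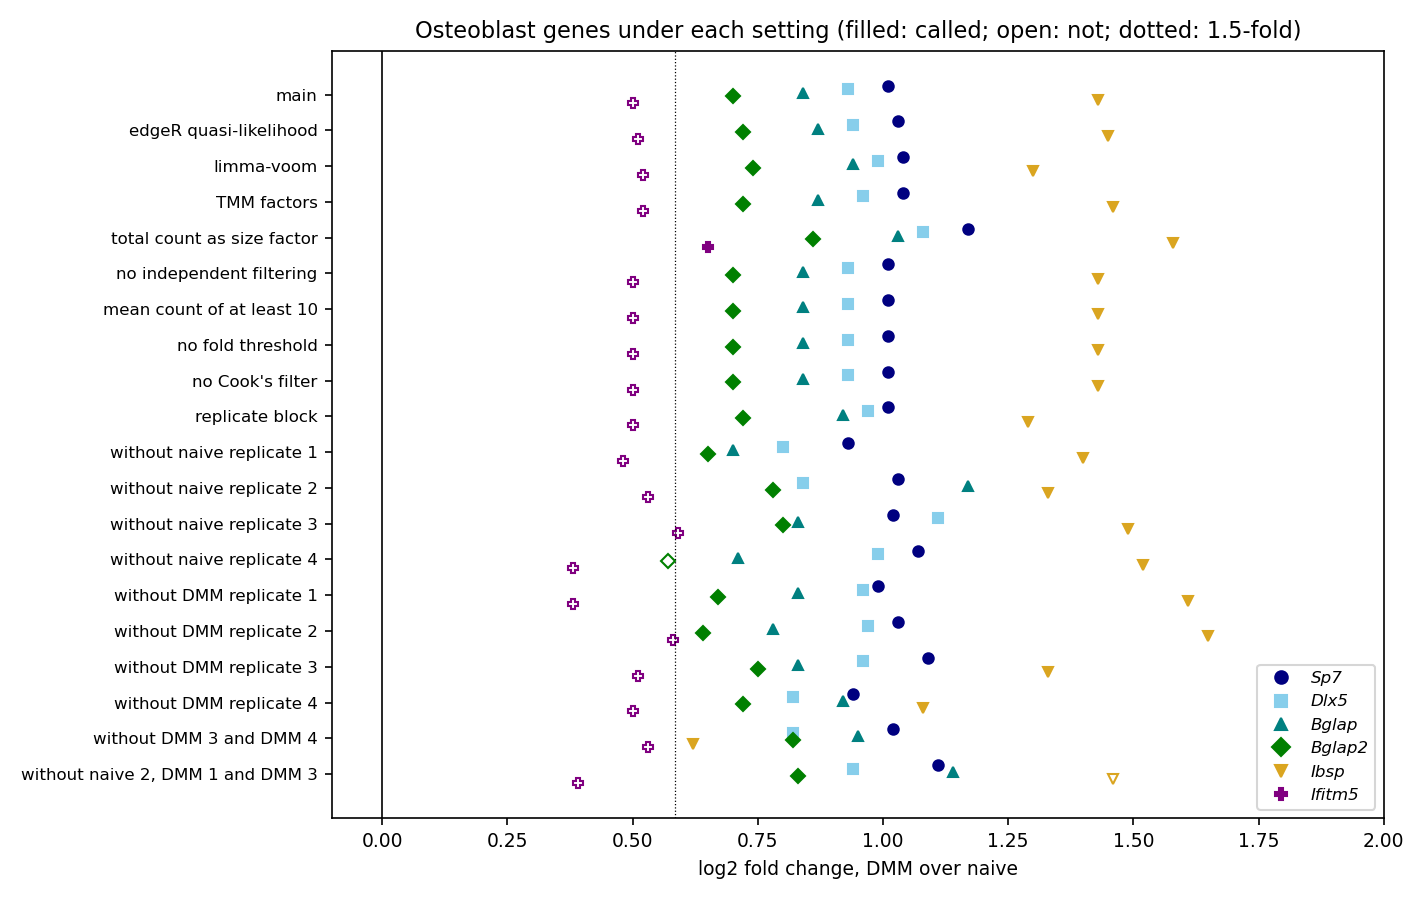
Log2 fold change of DMM over naive (x axis) of the 6 osteoblast genes under each setting (y axis); filled symbols were called, open symbols were not, and the dotted line marks 1.5-fold. All values are above 0, and Ibsp shows the widest range, from 0.62 to 1.65.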

How the data were processed

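RNA was extracted from dissected medial knee cartilage caps, ground in frozen state. Per the labels the kit for library preparation was a low-input RNA kit, while the study's methods describe SMART-Seq reagents and removal of ribosomal RNA. The authors trimmed reads with Trimmomatic, pseudo-aligned them with Kallisto and summed transcripts to genes with tximport, and deposited a table of estimated counts, of which 39.2% were not whole numbers. The processing notes name a human build and the methods a mouse build, and which build the counts rest on was not resolved. Coordinates given here come from GENCODE vM21 by gene identifier. Symbols were found for 48855 identifiers, holding 86.6% of counts. Genes and gene lists were chosen with earlier results of these data known.

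Expected counts as deposited by the authors were rounded and tested with DESeq2 1.42.0 in R 4.3.3, the tool the methods of the study name (Wald statistic; size factors by median of ratios; independent and Cook's filtering at their defaults; 8 libraries, no covariates). Normalised counts are counts over these size factors. Calls needed an adjusted p of 0.05 and 1.5-fold. Ratios between genes used a pseudocount of 0.5 and exact permutation over 70 assignments, with 95% intervals by inversion of that test. Named genes were the 6 members, called genes of the 4 lists, Runx2, Col1a1, Alpl, Dmp1, Sost and Col10a1, and the 5 genes of greatest likeness. Other uncalled genes, and the chromosomal neighbours, were named after their values were seen. Alternatives were edgeR 4.0.16, limma-voom (limma 3.58.1), other scalings and filters, a replicate block and leaving out libraries. The scripts were tested on simulated data. No 2 libraries of a group agreed within sampling noise, the chi-square per degree of freedom being at least 7.34. Samples were 4 mice per group, and no sample was left out. One further regulator gene, outside the lists as counted here, is not reported here. Totals were 12479443 to 16548002 counts.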

Additional observations from a re-analysis of the deposited data

Results flagged for a closer look

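In groups of 4 libraries, a library was picked out when its gap to the nearest other was, relative to the range of the group, above Dixon's 95% critical value, which chance gives in about 1 of 20 groups. Of 104 groups examined 8 were picked out, against 5.2 expected. Among the osteoblast genes the only such value was Dlx5 in DMM replicate 4, at 721 normalised counts against 545 to 557 in the other DMM libraries. Among the listed genes, Ihh was at 178 in the same library against 101 to 102 in the others, Phospho1 at 947 in DMM replicate 1 against 769 to 796, and Cbfb at 1205 in naive replicate 2 against 993 to 1002. Naive replicate 2 also had 16770 genes with at least 10 counts, against 18276 to 18467 in the other naive libraries. The erythroid share was 1.26% of counts in DMM replicate 3 against 0.593% to 0.647% in the others, the marrow stroma share 0.136% in DMM replicate 2 against 0.0843% to 0.0920%, and the skeletal muscle share 0.00676% in DMM replicate 1 against 0.000277% to 0.000909%.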

How the results depend on the processing

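The fold changes of the 6 genes were above 0 in every fit made. Leaving out single libraries gave log2 fold changes of 0.57 to 0.80 for Bglap2, the lowest without naive replicate 4, where its call was lost. Ifitm5 gained a call at 0.65 with the total count as size factor. The replicate numbers did not pair the samples (correlations of same-numbered deviations 0.05, 0.06, -0.12 and 0.12, with 1 of 4 naive libraries closest to its own number). A replicate block left 5 of the 6 genes called, and 2081 genes in all, against 2429 without it; of the listed genes it added Dlx3 (0.60) and Mepe (1.17). Dropping the fold threshold gave 4010 calls, 1989 lower, and 3 of the 7 regulators called rather than 1. Of these 7, 2 were called with limma-voom, the total count as size factor or the replicate block, and 1 to 2 without single libraries, the higher number without naive replicate 4 or DMM replicate 2. With the total count as size factor 489 genes were called lower. Leaving out naive replicate 2 and DMM replicates 1 and 3 together, chosen after seeing the data, gave 972 calls (516 higher, 456 lower) and an uncalled Ibsp at 1.46. Atf4 changed sign to 0.00 with edgeR, 0.01 with TMM factors, 0.14 with the total count and ranged from -0.08 to 0.06 without single libraries, and Runx3 to 0.03 with the total count; neither was called. Without single libraries 4 to 7 library measures had an unadjusted exact permutation P of 0.05 or less (7 with all libraries, each with an adjusted P of 0.0571 over 14 measures), the lowest number without naive replicate 1, and all genes called ranged from 1858 to 2842. The cause of these shifts was not tested.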
